A study of Mus musculus with 2 samples.

Results

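The cells described here are the epithelial cells of the newborn mouse kidney that carried transcripts of Slc12a1, the apical sodium-potassium-chloride cotransporter of the loop of Henle, together with Umod, which encodes uromodulin. They were chosen from 2 single-cell RNA libraries by unscaled counts of UMIs (unique molecular identifiers, 1 for each captured transcript). A barcode counted as a cell where it held 3000 or more UMIs over 500 or more genes, with no more than 20% of UMIs from mitochondrial genes. Of these cells, those with at least 4 Slc12a1 UMIs and at least 1 Umod UMI were kept if they had at most 1 UMI each of Slc12a3 and Slc34a1, no Pecam1 UMI and at most 2 Col3a1 UMIs. The last 4 genes mark distal convoluted tubule, proximal tubule, endothelium and stroma. In all, 470 of 9735 cells met the rule, 224 of 5529 in replicate 1 and 246 of 4206 in replicate 2. This is 4.05% of cells in replicate 1 (95% exact binomial interval 3.55 to 4.6%) and 5.85% in replicate 2 (5.16 to 6.60%), with a mean of 4.95% ± 1.27 (SD, n = 2 libraries). The intervals cover counting error only.

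Both libraries came from kidney at postnatal day 0 and carry the same genotype label, Rbpj c/+ ; Foxd1cre/+. It is read here as 1 copy of a conditional allele of Rbpj, the DNA-binding partner of the Notch receptors, with a Cre recombinase driven by Foxd1. Foxd1 marks the stromal progenitors of the kidney. Whether the allele was recombined in the cells described here cannot be read from these counts. The labels do not say whether the libraries came from separate animals or from pools. The library entered each fit as a block, so p-values measure only how differences between sets of cells varied between these 2 libraries. Both libraries have this genotype, so nothing can be said of its effect, and differences between the libraries are described without a test.

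The thick ascending limb of the loop of Henle takes up sodium chloride through the cotransporter encoded by Slc12a1, returns potassium to the lumen through the channel encoded by Kcnj1, and is impermeable to water. The resulting charge across the epithelium drives sodium, calcium and magnesium between the cells, through tight junction proteins of the claudin family. In this limb, claudin-10 forms sodium-selective pores and claudin-16 acts with claudin-19 in the passage of calcium and magnesium. The limb ends at the macula densa, a plaque of sensor cells that expresses Nos1 and Ptgs2 and signals to the glomerulus.

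Slc12a1 lies at chr2:125152505-125230002 on the plus strand and Umod at chr7:119462711-119479282 on the minus strand (GENCODE M21, GRCm38). The claudin genes by which these cells are divided below are Cldn10 at chr14:118787908-118875489 and Cldn16 at chr16:26463135-26482765, both on the plus strand. The bases upstream of Umod, Cldn10 and Cldn16 are shown because the cells are compared below by their levels of these 3 genes. The sequences are from RefSeq on GRCm38.p6 and were matched by symbol for 3 of 3 genes. Each runs 5′ to 3′ on the strand of its gene and was placed by the RefSeq start site, which for Umod and Cldn10 differs from the GENCODE one. The windows are chr7:119479283-119479512 (minus strand), chr14:118787621-118787870 (plus strand) and chr16:26462885-26463134 (plus strand). The first holds 230 bases, since the 20 bases next to the RefSeq start lie in an exon annotated by GENCODE and are not shown. The others hold the 250 bases up to the RefSeq start. Capitals mark GTTAAT, the core of the hepatocyte nuclear factor 1 motif, or its reverse complement ATTAAC.
Umod: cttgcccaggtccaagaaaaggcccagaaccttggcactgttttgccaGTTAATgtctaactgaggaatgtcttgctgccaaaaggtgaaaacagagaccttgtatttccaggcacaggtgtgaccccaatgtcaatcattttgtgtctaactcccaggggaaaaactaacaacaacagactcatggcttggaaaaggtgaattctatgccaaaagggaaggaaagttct
Cldn10: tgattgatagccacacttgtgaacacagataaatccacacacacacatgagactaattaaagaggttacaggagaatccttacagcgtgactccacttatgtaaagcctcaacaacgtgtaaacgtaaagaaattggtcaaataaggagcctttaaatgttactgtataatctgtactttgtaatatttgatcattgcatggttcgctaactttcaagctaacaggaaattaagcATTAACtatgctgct
Cldn16: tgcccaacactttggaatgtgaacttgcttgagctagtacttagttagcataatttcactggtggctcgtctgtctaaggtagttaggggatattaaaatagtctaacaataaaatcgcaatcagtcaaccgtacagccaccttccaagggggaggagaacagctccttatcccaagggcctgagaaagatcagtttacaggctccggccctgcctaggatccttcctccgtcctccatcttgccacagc
The motif began 202 bases before the RefSeq start site of Umod, counting the bases not shown, and, on the other strand, 15 bases before that of Cldn10, and these letters were not in the Cldn16 window. Searched on both strands, the 6 letters occurred in 2113 of 32851 promoter windows of 250 bases (6.43%). A match is a description of the sequence only. Cldn10 has 2 annotated start sites 67079 bases apart, and the window shown precedes the upstream one. Counts from the 3′ ends of transcripts do not separate their products.

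The members had medians of 27985 and 28177 UMIs and of 5858 and 6074 genes in replicates 1 and 2, against medians of 15016 and 20008 UMIs over all cells. Their median mitochondrial share was 13% and 11.3%, against 5.32% and 4.74% over all cells. Members were a larger share of deep barcodes. They made up 1.07% and 4.61% of cells with 3000 to 5000 UMIs and 10.4% and 8.77% of cells with at least 50000 UMIs, and what this says of their number in the tissue was not tested. The members summed to 10147546 and 9666360 UMIs. The libraries shared 6 cell barcodes, none of them a member's. A doublet caller, Scrublet, marked 5 and 2 members, which were kept.

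For the label, all 10 markers of the loop of Henle fixed for this check were at 20 or more CPM (counts scaled to a total of 1000000 UMIs) in both libraries. They summed to 8851 and 9369 CPM in the members. The sums were 883 to 984 CPM in distal convoluted tubule cells and 26.8 to 49.9 CPM in endothelial and stromal cells. The list includes Slc12a1 (5678 and 5943 CPM) and Umod (949 and 885 CPM), which chose the members, and the other sets were chosen for low Slc12a1. These sums therefore follow in large part from the rule. Among markers of other types, the list of 8 for the distal convoluted tubule was highest, at 329 and 353 CPM, mostly Wnk1, with 3 and 2 of them at 20 CPM or more. The erythroid list summed to 149 and 166 CPM. The proximal tubule list summed to 43.4 and 41.1 CPM, with Slc5a2 at 0 in replicate 2, the principal cell list to 68.0 and 74.7 CPM, and the podocyte list to 57.6 and 83.1 CPM. The stroma list summed to 13 and 17.9 CPM, with Lum at 0. The intercalated cell list summed to 30.6 and 61.0 CPM, the endothelial list to 21.8 and 25.2 CPM with Pecam1 at 0 by rule, the mural list to 8.47 and 16.6 CPM and the macrophage list to 39.2 and 14.5 CPM. Nephron progenitor markers summed to 21.3 CPM in replicate 1 and 67.8 CPM in replicate 2.

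Slc12a1 reached 5678 and 5943 CPM over the summed members (mean 5811 ± 188, SD, n = 2), and Umod 949 and 885 CPM. These genes chose the cells, so their levels are a description. Endothelial cells held 6.72 and 9.28 CPM of Slc12a1, but they were chosen to have at most 1 Slc12a1 UMI. Their level is therefore capped and does not measure the floor set by free RNA. Per cell, Slc12a1 ran from 39.9 CPM through a median of 6277 to 15381 in replicate 1 and from 15.3 through 6414 to 17523 in replicate 2. Umod ran from 8.49 through 710 to 5931 CPM and from 3.82 through 713 to 5001 CPM. Umod varied more from cell to cell than Slc12a1. Its 10th percentile over cells was 69.2 and 49.6 CPM and its 90th was 2769 and 2438 CPM. Across cells the genes went together only loosely, with Spearman's rho of 0.28 and 0.05 over 224 and 246 cells that share library and depth.

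**Figure D1:**
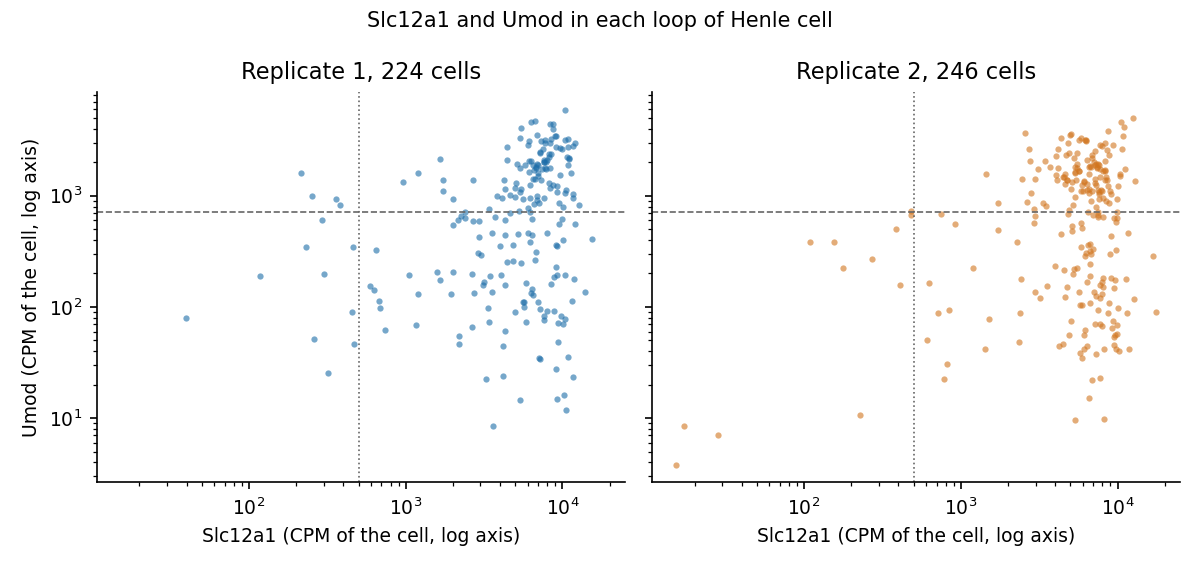
Slc12a1 and Umod in each loop of Henle cell, in CPM on log axes, with 1 panel per library and 1 point per cell. Slc12a1 medians were 6277 and 6414 CPM, while Umod spread over more than 2 orders of magnitude around medians of 710 and 713 CPM, and a few cells in each library lie far to the low end of Slc12a1.

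The edges of the rule were thinly filled for Slc12a1 and well filled for Umod. Members with exactly 4 Slc12a1 UMIs numbered 1 and 4, and cells that failed only by holding 3 numbered 4 and 2. Members with exactly 1 Umod UMI numbered 24 and 34, and a further 58 and 80 cells met every limit except that for Umod. Those outside cells held Slc12a1 at 4394 and 5567 CPM and Cldn10 at 354 and 324 CPM. By the Slc12a3, Slc34a1, Pecam1 and Col3a1 limits alone, 6, 10, 19 and 4 cells stayed out in replicate 1 and 3, 11, 20 and 4 in replicate 2.

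A tail of members fell under 500 CPM of Slc12a1, a limit chosen after seeing the data: 14 cells (6.25%) in replicate 1 and 12 (4.88%) in replicate 2. Lhx1, a transcription factor of early nephron structures, stood at 199 and 467 CPM in them and at 28.7 and 15.2 CPM in the other members. Wnt4, a signal of early nephron formation, stood at 12.6 and 534 CPM against 3.02 and 2.78 CPM, so its excess lay mainly in replicate 2. Kcnj1 was at 17.2 and 4.77 CPM against 297 and 272 CPM. Jag1, which encodes a Notch ligand, stood at 99.7 and 123 CPM against 46.5 and 40.3 CPM. Sox4, a transcription factor, stood at 173 and 229 CPM against 156 and 109 CPM. Other early genes, Six2 and Cdh6, did not follow in both libraries. Six2, a progenitor factor, stood at 0 and 35.3 CPM against 1.40 and 3.13 CPM, and Cdh6, a cadherin of early tubule, at 124 and 221 CPM against 160 and 115 CPM. These are values of cells picked by level, and in the sums deep cells weigh most. In replicate 2 the median depth of this tail was 35141 UMIs. Its cells with 141134, 233390 and 261972 UMIs held 4 Slc12a1 UMIs each, and 1 with 185948 UMIs held 42. Each of these deep cells lies in the Umod-low group described below. Their part in the values was not tested. Some results that this tail moved are given with and without it, and others only with it.

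The most abundant transcripts of the members, leaving out mitochondrial and ribosomal protein genes, were Malat1, a nuclear noncoding RNA, and Gm42418, followed by Slc12a1. Among them were Fxyd2, a regulator of the sodium pump, at 4722 and 6077 CPM, and its beta subunit gene Atp1b1 at 2644 and 3165 CPM. The receptor tyrosine kinase gene Erbb4 stood at 4752 and 3464 CPM. The nuclear receptor gene Esrrg stood at 3149 and 2161 CPM. These are counts from transcript ends and are not corrected for gene length.

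To set the members beside other tubule segments, UMIs were summed per library over 192 distal convoluted tubule cells (63 and 129), 569 proximal tubule cells (368 and 201) and 298 collecting duct cells (156 and 142). The 8 sums entered 1 edgeR fit with the library as a block, leaving 3 residual degrees of freedom. Each set was chosen by its own transport gene (Slc12a3, Slc34a1 or Aqp2) with low levels of Slc12a1 and, apart from Aqp2, of the others. Aqp2 had no upper limit in any set. Differences in genes of transport therefore follow in part from the choice. The genes of the rules themselves were not tested. The comparisons share the loop of Henle sums and are not independent of each other. Of 15141 genes tested, 3244 (21.4%) differed from distal convoluted tubule cells at an adjusted p of 0.05, 1549 higher (10.2%) and 1695 lower (11.2%). Against proximal tubule cells 6858 (45.3%) differed, 3286 higher (21.7%) and 3572 lower (23.6%), and against collecting duct cells 4549 (30%), 2262 higher (14.9%) and 2287 lower (15.1%). The median log2 fold change over all genes was -0.01, 0.00 and -0.00. The comparison sets were not pure. Intercalated cell markers summed to 1142 and 456 CPM in distal convoluted tubule cells and to 1038 and 896 CPM in collecting duct cells, against 30.6 and 61.0 CPM in the members. Principal cell markers summed to 1258 and 682.5 CPM in distal convoluted tubule cells, against 68.0 and 74.7 CPM in the members. Markers of the distal convoluted tubule summed to 925 and 1769 CPM in collecting duct cells, against 329 and 353 CPM in the members. The part of these markers in the results below was not tested.

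Of 12 genes of sodium chloride transport in the thick limb, 10 were higher and none lower than in proximal tubule cells (median log2 fold change 1.84), and 10 were higher and 1 lower than in collecting duct cells (median 1.14). Against distal convoluted tubule cells only 1 was higher and 6 were lower (median -0.31). Kcnj1, the apical potassium channel ROMK, had 273 and 243 CPM in the members, 202 and 203 CPM in distal convoluted tubule cells, 9.44 and 10.3 CPM in collecting duct cells and 0.551 and 0.6 CPM in proximal tubule cells. It was higher than in proximal tubule cells by 8.67 ± 0.18 (log2, SE; edgeR adjusted p = 7.9e-08) and than in collecting duct cells by 4.77 ± 0.13 (edgeR adjusted p = 1.2e-06). The difference from distal convoluted tubule cells, 0.26 ± 0.10, did not pass (edgeR adjusted p = 0.11).

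The exception was Slc9a3, the apical sodium-hydrogen exchanger NHE3. It had 133 and 117 CPM in the members against 0.719 and 2.44 CPM in distal convoluted tubule cells, a difference of 5.99 ± 0.34 (log2, SE; edgeR adjusted p = 3e-05). Basolateral genes ran the other way. Kcnj10, a basolateral potassium channel, had 42.4 and 59.6 CPM in the members and 169 and 196 CPM in distal convoluted tubule cells (log2 -1.94 ± 0.10; edgeR adjusted p = 1.6e-05). Bsnd, which encodes barttin, a subunit of basolateral chloride channels, had 54.0 and 62.4 CPM against 76.2 and 90.6 CPM. Bsnd, Atp1b1 and Kcnj16 were all lower in the members, with log2 differences of -0.61, -0.75 and -0.78. Kcnj10 and Bsnd were lower in the members within each library.

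Regulators of the cotransporters were mostly lower than in distal convoluted tubule cells. Of 14 genes of the WNK-SPAK pathway and of cotransporter trafficking, 9 were lower and 1 higher than in distal convoluted tubule cells (median -0.58). Wnk1, a gene of the WNK family, had 242 and 286 CPM in the members against 1223 and 1422 CPM (log2 -2.42 ± 0.17; edgeR adjusted p = 6.9e-05). Counts from transcript ends do not separate the products of this gene. Klhl3, which targets WNK kinases for degradation, had 32.8 and 25.9 CPM against 348 and 333 CPM. Sgk1, an aldosterone-responsive kinase, had 5.12 and 3.10 CPM against 169 and 111 CPM. Against proximal tubule cells 7 of these genes were higher and 3 lower, and against collecting duct cells 4 were higher and 5 lower.

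Among 15 claudins and tight junction genes, 5 were higher and 3 lower than in distal convoluted tubule cells (median 0.09). Cldn10 had 646 and 824 CPM in the members against 1.80 and 5.49 CPM (log2 7.38 ± 0.39; edgeR adjusted p = 2.2e-05). Cldn16 had 86.4 and 96.9 CPM against 5.75 and 1.42 CPM (4.81 ± 0.33; edgeR adjusted p = 6.7e-05). Cldn19, the partner of claudin-16, had 242 and 270 CPM against 23.0 and 35.8 CPM (3.05 ± 0.19; edgeR adjusted p = 4.2e-05). Each of these was also higher than in proximal tubule and collecting duct cells, although Cldn10 reached 289 and 194 CPM in the proximal tubule (1.49 ± 0.25; edgeR adjusted p = 0.0018). Claudins of neighbouring segments were lower in the members. Cldn2, a pore of the proximal tubule, had 1.68 and 1.34 CPM against 270 and 245 CPM there. Cldn8, a barrier claudin of the distal nephron, had 24.2 and 18.2 CPM against 322 and 307 CPM in the collecting duct and 281 and 200 CPM in distal convoluted tubule cells.

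Genes of calcium and magnesium handling were almost all lower than in distal convoluted tubule cells, with 11 of 13 genes lower and 1 higher (median -3.35). The higher gene was Casr, the calcium-sensing receptor, at 104 and 74.4 CPM against 11.5 and 8.54 CPM (log2 3.05 ± 0.16; edgeR adjusted p = 2.3e-05). Casr stood at 0.184 and 0.3 CPM in proximal tubule cells and at 4.29 and 2.30 CPM in collecting duct cells, and was higher in the members than in either. Trpm6, the magnesium channel of the distal convoluted tubule, had 3.05 and 2.28 CPM in the members against 201 and 248 CPM (-6.46 ± 0.23; edgeR adjusted p = 4.8e-06). Calb1, the calcium buffer calbindin, had 10.7 and 14.6 CPM against 2692 and 5216 CPM (-8.32 ± 0.23; edgeR adjusted p = 2.6e-06). Slc8a1, a sodium-calcium exchanger, had 42.1 and 29.3 CPM against 8356 and 9070 CPM. Trpm6, Calb1 and Slc8a1 carry calcium and magnesium through the cell, and each was low in both libraries of the members. The list counted 5 genes higher and 2 lower than in proximal tubule cells, and 2 higher and 7 lower than in collecting duct cells. Egf, a magnesium-regulating growth factor of the adult loop, was at 4.53 and 5.79 CPM in the members and 4.31 and 5.89 CPM in distal convoluted tubule cells, and its difference did not pass.

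**Figure D2:**
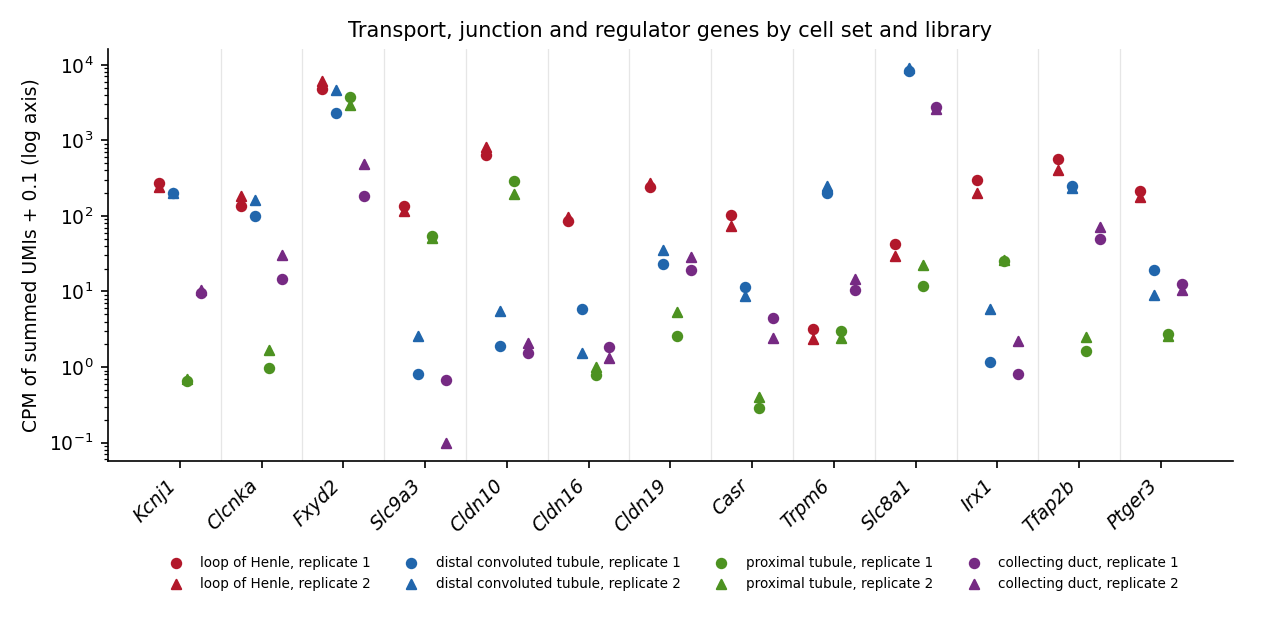
Levels of selected genes in the summed cells of each set, as CPM + 0.1 on a log axis, with colours for the sets and 1 point per library. Kcnj1 was at 273 and 243 CPM in loop of Henle cells and close to that in distal convoluted tubule cells, whereas Cldn10, Casr and Irx1 were higher in loop of Henle cells than in distal convoluted tubule cells in both libraries.

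Of 15 hormone and paracrine receptors, 5 were higher and 4 lower than in distal convoluted tubule cells, 7 higher and 3 lower than in proximal tubule cells, and 3 higher and 5 lower than in collecting duct cells. Ptger3, a prostaglandin E2 receptor, was higher in all 3 comparisons. It had 212 and 176 CPM in the members, against 19 and 8.94 CPM in distal convoluted tubule cells (log2 3.79 ± 0.17; edgeR adjusted p = 1.1e-05), 12.6 and 10.3 CPM in the collecting duct and 2.63 and 2.50 CPM in the proximal tubule. Avpr2, the vasopressin receptor, had 4.04 and 7.97 CPM in the members and 51.8 and 49.6 CPM in collecting duct cells (-3.04 ± 0.30; edgeR adjusted p = 0.0002). Pth1r, the parathyroid hormone receptor, had 198 and 211 CPM in the members, above the collecting duct at 37.5 and 45.5 CPM and below the proximal tubule at 284 and 309 CPM. Nr3c2, the mineralocorticoid receptor, was lower than in both distal sets and higher than in the proximal tubule.

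Of 31 transcription factors of nephron segments tested, 12 were higher and 12 lower than in distal convoluted tubule cells (median 0.17), 17 higher and 8 lower than in proximal tubule cells (1.56), and 14 higher and 13 lower than in collecting duct cells (0.66). Irx1, an Iroquois factor of the intermediate nephron, had 295 and 202 CPM in the members against 1.08 and 5.69 CPM in distal convoluted tubule cells (log2 5.85 ± 0.42; edgeR adjusted p = 8.3e-05). Irx2 had 128 and 102 CPM against 0.359 and 1.83 CPM, and Sim2 174 and 106 CPM against 0 and 4.27 CPM. All 3 were also higher than in proximal tubule and collecting duct cells.

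Pou3f3, which is required for the loop to form, had 224 and 169 CPM in the members. It was higher than in proximal tubule (33.9 and 38.0 CPM) and collecting duct cells (111 and 99.1 CPM), and its difference from distal convoluted tubule cells (161 and 119 CPM) was 0.41 ± 0.13 with an edgeR adjusted p of 0.056. Tfap2b, a factor of the distal nephron, had 559 and 410 CPM and was higher than in each of the other sets, which held 252 and 232 CPM (distal convoluted tubule), 48.9 and 70.8 CPM (collecting duct) and 1.53 and 2.40 CPM (proximal tubule). On the other side, Emx1 had 1.28 and 2.07 CPM in the members against 303 and 318 CPM in distal convoluted tubule cells. Gata3, a factor of the ureteric lineage, had 3.45 and 5.48 CPM against 593 and 390 CPM in the collecting duct. Hnf4a, a factor of the proximal tubule, had 1.58 and 1.14 CPM against 251 and 247 CPM there. Each of these 3 differences passed.

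By the rule of largest change among genes above 20 CPM, Egfl6, which encodes a secreted matrix protein, rose furthest among genes also detected in distal convoluted tubule cells outside the fixed lists, with 148 and 124 CPM against 0.359 and 1.02 CPM (log2 7.30 ± 0.25; edgeR adjusted p = 4.1e-06). Abca13, a transporter gene, had 293 and 255 CPM against 1.16 and 1.10 CPM in proximal tubule cells (7.78 ± 0.16; edgeR adjusted p = 7.9e-08). Libraries differed for Cdh20, with 64.0 and 2.79 CPM in the members. Scnn1g, an epithelial sodium channel subunit, had 3.25 and 2.17 CPM against 332 and 205 CPM in distal convoluted tubule cells. In the collecting duct, the water channel Aqp4 had 221 and 185 CPM against 1.77 and 1.34 CPM in the members. Slc5a12 and Hdc, of the proximal tubule, stood at 265 and 193 CPM and at 750 and 605 CPM there and at 0.591 and 0.621 CPM and 1.58 and 2.07 CPM in the members.

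Of 14 secreted and luminal proteins, 5 were higher and 5 lower than in distal convoluted tubule cells, 9 higher and 1 lower than in proximal tubule cells, and 7 higher and 4 lower than in collecting duct cells. Kng2, a kininogen, was higher in all 3, with 480 and 626 CPM in the members and 277 and 318 CPM in the closest set, the distal convoluted tubule. Tmem207, the neighbour of Cldn16 on chromosome 16, had 11.6 and 20.4 CPM in the members and no UMI in distal convoluted tubule or collecting duct cells. Against a floor of 3 counts over both libraries it was at least 40.8-fold and 71.6-fold higher. Defb1, a defensin, had 42.7 and 33.9 CPM against 1927 and 2326 CPM in distal convoluted tubule cells (log2 -5.84 ± 0.33; edgeR adjusted p = 3.1e-05), and Kl, which encodes klotho, had 51.7 and 41.9 CPM against 651 and 678 CPM. Cxcl12, a chemokine, had 297 and 257 CPM in the members and 10.8 and 19.9 CPM in distal convoluted tubule cells.

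Energy metabolism differed by segment. Of 24 genes, 12 were higher and 7 lower than in proximal tubule cells (median 0.32), 16 higher and 2 lower than in collecting duct cells (0.66), and 3 higher and 8 lower than in distal convoluted tubule cells (-0.30). Hk1, the first enzyme of glycolysis, had 191 and 234 CPM against 2.21 and 2.70 CPM in the proximal tubule (log2 6.32 ± 0.15; edgeR adjusted p = 9.3e-08). Gluconeogenic genes of the proximal tubule were low in the members: Pck1 had 1.38 and 4.76 CPM against 236 and 536 CPM, and Fbp1 7.69 and 8.17 CPM against 452 and 656 CPM. Acadm, of fatty acid oxidation, had 310 and 395 CPM, below the proximal tubule at 520 and 726 CPM and above the collecting duct at 127 and 168 CPM. Each of these differences passed. Mitochondrial genes gave 10.3% and 10.3% of the members' UMIs, against 10.7% and 13% in distal convoluted tubule, 9.17% and 8.61% in proximal tubule and 8.05% and 8.93% in collecting duct cells.

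The other lists were smaller. Of 9 thin limb genes, 5 were higher and none lower than in distal convoluted tubule cells (median 2.80), 4 higher and 4 lower than in proximal tubule cells, and 3 higher and 2 lower than in collecting duct cells. Cryab, a small heat shock protein gene, had 54.1 and 74.4 CPM in the members and 8.63 and 8.74 CPM in distal convoluted tubule cells. Of 8 genes of osmolyte handling, 2 were higher and 4 lower than in distal convoluted tubule cells, 6 higher and 2 lower than in proximal tubule cells, and 2 higher and 5 lower than in collecting duct cells. Slc5a3, the inositol transporter, was higher than in distal convoluted tubule cells by 1.28 and than in collecting duct cells by 3.01 on the log2 scale. The macula densa list of 10 genes counted 2 higher and 2 lower, 4 higher and 1 lower, and 2 higher and 3 lower in these comparisons, in the same order. The nephron progenitor and fetal programme, 17 genes, counted 5 higher and none lower, 4 higher and 4 lower, and 5 higher and 3 lower. Sox11, a factor of immature epithelium, had 115 and 139 CPM in the members and was higher in all 3 comparisons, with 54.3 and 42.5 CPM in distal convoluted tubule cells. Cilium genes, 12 in number, counted 2 higher and 1 lower, 3 higher and 4 lower, and 2 higher and none lower, and 7 innate and antigen genes 3 higher and 1 lower, 5 higher and 2 lower, and 3 higher and 1 lower.

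Some of these counts changed with the fit and with the cells that entered. Without the library block, the count of lower genes against distal convoluted tubule cells was 2 in place of 6 for transport, 5 in place of 9 for the WNK pathway and 2 in place of 8 for energy metabolism. Without cells holding a Mki67 or Top2a UMI, an alternative chosen after seeing the data, the same counts were 2, 5 and 2. That choice left the members 2837938 and 3254927 UMIs in place of 10147546 and 9666360. Distal convoluted tubule cells kept 1191017 and 2891559 UMIs in place of 2782344 and 4920147. The part of this loss in the counts was not tested. Of the energy genes higher than in collecting duct and proximal tubule cells, 5 in place of 16 and 7 in place of 12 passed without the block.

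Genes of the cell cycle were higher in the members than in their neighbours. Of 20 tested, 19 were higher and none lower than in distal convoluted tubule cells (median 1.79), 18 higher and none lower than in collecting duct cells (1.23), and 14 higher and 1 lower, Mcm6, than in proximal tubule cells (0.64). Mki67, a marker of dividing cells, had 124 and 76.3 CPM in the members against 34.1 and 19.1 CPM in distal convoluted tubule cells (log2 1.84 ± 0.13; edgeR adjusted p = 7.7e-05) and 48.7 and 37.7 CPM in collecting duct cells (1.24 ± 0.12). Top2a, the topoisomerase of mitosis, had 134 and 110 CPM against 34.1 and 33.1 CPM in distal convoluted tubule cells. The counts fell to 11, 9 and 5 higher and none lower without the library block. Without the members under 500 CPM of Slc12a1, the count against proximal tubule cells was 7 higher and 1 lower.

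As a share of cells, with each cell thinned to 3000 UMIs, 25% (exact binomial interval 19.5 to 31.2%) and 18.3% (13.7 to 23.7%) of members had a UMI of Mki67 or Top2a. In distal convoluted tubule cells the share was 9.52% (3.58 to 19.6%) and 3.10% (0.85 to 7.75%). Proximal tubule cells had 10.9% and 12.4%, collecting duct cells 12.2% and 12%, and endothelial cells 31.9% and 27.1%. No cell was too shallow for this thinning. Before thinning, 54.9% and 48.8% of members had such a UMI, against 36.5% and 29.5% of distal convoluted tubule cells, whose median depth was 28475 and 30345 UMIs. The thinned share of the members was above that of the other 3 tubule sets in both libraries.

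**Figure D3:**
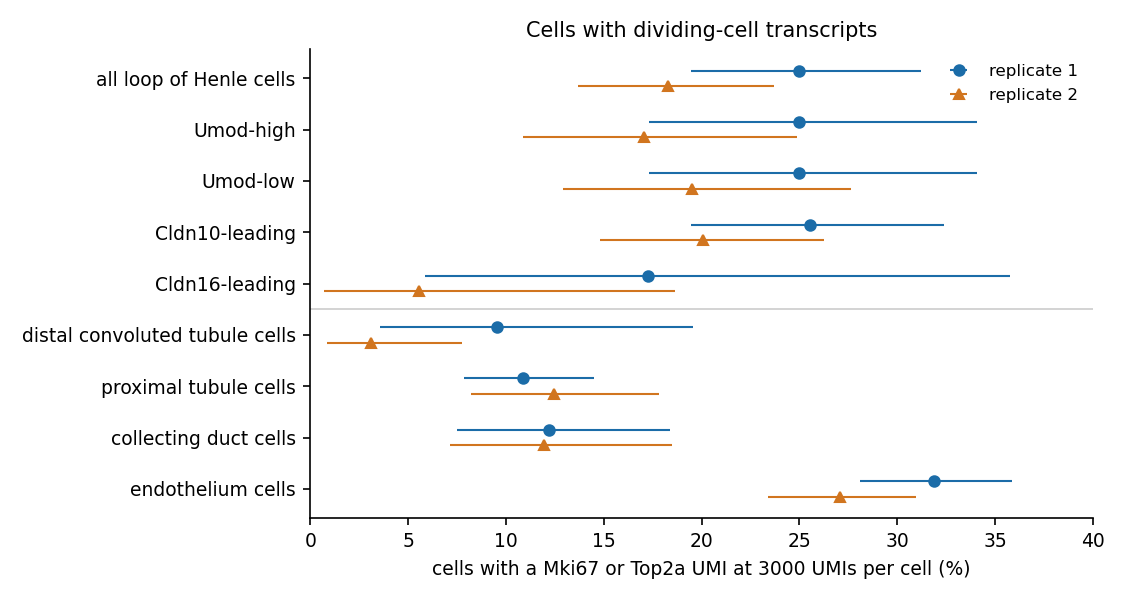
Share of cells with a Mki67 or Top2a UMI after thinning each cell to 3000 UMIs, in percent, for all loop of Henle cells, their Umod and claudin groups and 4 other sets, by library, with 95% exact binomial intervals as bars. Loop of Henle cells, at 25% and 18.3%, lay above the other tubule sets, which ran from 3.10% to 12.4%.

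Rbpj itself had 57.1 and 50.4 CPM in the members and did not differ past the threshold from distal convoluted tubule (53.9 and 40 CPM), proximal tubule (47.4 and 45.8 CPM) or collecting duct cells (57.8 and 55.6 CPM). Transcript ends cannot tell an intact from a recombined allele. Of 19 Notch pathway genes tested, 2 were higher and 1 lower than in distal convoluted tubule cells, 4 higher and 7 lower than in proximal tubule cells, and 3 higher and 7 lower than in collecting duct cells. Hes1, a Notch target, had 161 and 123 CPM in the members against 34.2 and 19.7 CPM in proximal tubule cells (log2 2.30 ± 0.16; edgeR adjusted p = 1.3e-05) and 247 and 227 CPM in the collecting duct (-0.70 ± 0.15; edgeR adjusted p = 0.0095). Jag1, which encodes a ligand of the Notch receptors, stood at 51.0 and 49.2 CPM, and no comparison of it passed.

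How the members differ among themselves was examined first by Umod. Each library was split at its median, 710 and 713 CPM, into 112 and 112 cells in replicate 1 and 123 and 123 in replicate 2, with 20 and 22 cells within 20% of the split. Summed Umod was 1784 and 1760 CPM in the Umod-high group and 209 and 178 CPM in the Umod-low group by this choice. Slc12a1, not tested as a gene of the rule, stood at 6779 and 6715 CPM against 4702 and 5320 CPM. Median depth was 27249 and 29764 UMIs in the high group and 30096 and 26866 in the low group, and the median mitochondrial share was 14.1% and 12.7% against 9.76% and 9.13%. The 8 markers of the distal convoluted tubule summed to 234 and 170 CPM against 413 and 502 CPM, and the 5 nephron progenitor markers to 17.8 and 10.2 CPM against 24.4 and 114 CPM. The mitochondrial share and these markers thus moved with the split in both libraries, and their part in what follows was not tested. Of 12854 genes, 2020 (15.7%) differed in edgeR, 1197 higher (9.31%) and 823 lower (6.4%) in the high group, with a median of -0.01. This fit has 1 residual degree of freedom, and without the library block only 23 genes passed.

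Transport genes rose with Umod: 6 of 12 were higher in the high group and none lower (median log2 fold change 0.39). Kcnj1 had 395 and 338 CPM against 164 and 166 CPM (1.31 ± 0.10; edgeR adjusted p = 0.0002) and Fxyd2 6628 and 8396 CPM against 3032 and 4203 CPM. For both genes the high group lay above the low group within each library. Kcnj10, at 42.4 and 60.0 CPM against 42.4 and 59.3 CPM, had no difference past the threshold (0.18 ± 0.12). Energy metabolism rose broadly, with 18 of 23 genes higher and none lower (median 0.76). Idh2, a mitochondrial dehydrogenase, had 650 and 871 CPM against 370 and 532 CPM (0.93 ± 0.09; edgeR adjusted p = 0.00052) and Acadm 398 and 554 CPM against 233 and 266 CPM. The coactivator gene Ppargc1a had 434 and 414 CPM against 279 and 274 CPM, and the nuclear receptor gene Esrrb 150 and 102 CPM against 38.5 and 41.7 CPM (1.80 ± 0.15; edgeR adjusted p = 0.00026).

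Other genes on the high side were Ptger3, with 343 and 269 CPM against 94.6 and 101 CPM (log2 1.81 ± 0.12; edgeR adjusted p = 0.0001), and Lpl, a lipase that releases fatty acids, with 227 and 452 CPM against 38.7 and 114 CPM (2.41 ± 0.13; edgeR adjusted p = 5.4e-05). Plau, the urokinase gene, had 296 and 319 CPM against 72.9 and 64.5 CPM. Nr1h4, a bile acid receptor, had 25.6 and 24.3 CPM against 5.58 and 5.80 CPM. Of 13 secreted and luminal protein genes, 7 were higher and none lower. Slc5a3 had 410 and 333 CPM against 208 and 161 CPM (1.18 ± 0.10; edgeR adjusted p = 0.00027), 1 of 8 osmolyte genes higher, with 1 lower.

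The WNK pathway divided, with 5 of 14 genes higher and 2 lower. Wnk4 had 138 and 160 CPM against 69.2 and 92.4 CPM, and Wnk1 186 and 124 CPM against 292 and 416 CPM, and each passed. Among 14 claudins and junction genes 4 were higher and 3 lower, with Cldn10 at 765 and 1131 CPM against 540 and 576 CPM (0.91 ± 0.13; edgeR adjusted p = 0.0025) and Cldn1 at 3.15 and 2.78 CPM against 19.5 and 12.3 CPM. Of 14 receptors 5 were higher and 1 lower, of 12 calcium and magnesium genes none higher and 2 lower, of 12 cilium genes 4 higher and none lower and of 6 thin limb genes 1 higher and 1 lower. Transcription factors counted 4 higher and 6 lower of 26. Lhx1 had 17.2 and 4.86 CPM against 66.6 and 112 CPM (-2.81 ± 0.41; edgeR adjusted p = 0.0026). The members under 500 CPM of Slc12a1 held Lhx1 at 199 and 467 CPM, against 28.7 and 15.2 CPM in the others. This difference is given only with them included. Of 14 Notch genes 4 were lower and none higher: Notch1, Dll1, Maml2 and Maml3. Notch1, a receptor, had 24.5 and 14.6 CPM against 44.8 and 45.3 CPM (-1.06 ± 0.19; edgeR adjusted p = 0.0066).

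Genes of early nephron cells stood on the low side. Of 14 genes of the nephron progenitor and fetal programme, 8 were lower in the high group and none higher (median -1.24). Sox11 had 68.6 and 46.3 CPM against 157 and 213 CPM (-1.51 ± 0.19; edgeR adjusted p = 0.0013), and the imprinted gene Peg3 50.3 and 31.5 CPM against 183 and 94.3 CPM. Wnt4 passed by replicate 2 only: it had 3.98 CPM against 3.72 CPM in replicate 1 and 1.85 CPM against 108 CPM in replicate 2. Without the members under 500 CPM of Slc12a1 its difference was -0.66 (edgeR adjusted p = 0.41). Outside the lists, Sox9, a factor of nephron precursors and of repair, had 3.36 and 1.62 CPM against 102 and 45.1 CPM (-4.72 ± 0.20; edgeR adjusted p = 2.1e-05). Of its UMIs, 470 and 82 lay in members with more Cldn16 than Cldn10 UMIs, described below, and 86 and 122 in members with more Cldn10. The part of those cells in the Sox9 difference was not tested. Ccnd2, a cyclin, had 3.36 and 2.55 CPM against 35.7 and 60.0 CPM. Cells with dividing-cell transcripts did not separate the groups, at 25% and 17.1% of high and 25% and 19.5% of low cells after thinning.

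These counts were sensitive to which cells entered, and the split was drawn anew for each alternative. Without cells holding a Mki67 or Top2a UMI, 577 genes passed in place of 2020, 273 higher and 304 lower of 10287 tested. Of the lists, 7 of 22 energy genes, 1 of 12 transport genes and 3 of 11 progenitor and fetal genes kept a call in the same direction. The Umod-high sums then held 1170333 and 1602574 UMIs in place of 4768842 and 4319212, and the part of this loss was not tested. Without the members under 500 CPM of Slc12a1, 17 of 23 energy genes were higher, 6 of 13 progenitor and fetal genes lower, and 10 cell cycle genes higher in place of 2. Over all genes, 1344 of 12515 were higher and 1058 lower there. With each cell thinned to 3000 UMIs, 12 of 18 energy genes were higher and 2 of 8 progenitor and fetal genes lower. Over all genes, 175 of 6008 were higher and 123 lower in that fit. Its redrawn groups held 93 and 108 high cells and 131 and 138 low cells.

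**Figure D4:**
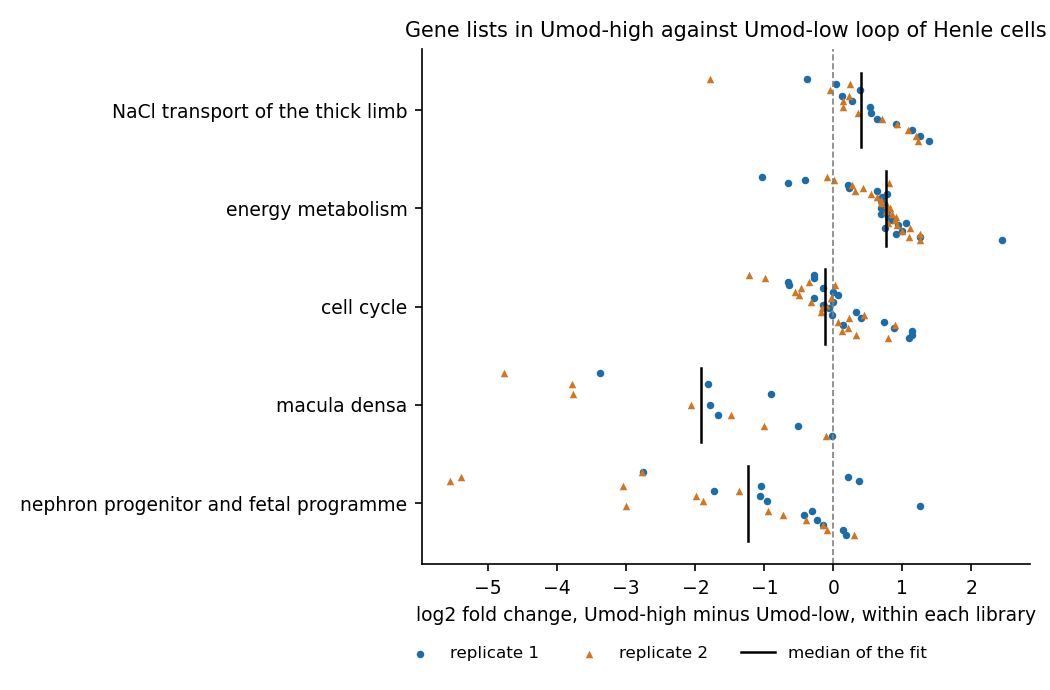
Log2 fold change of Umod-high against Umod-low loop of Henle cells for the genes of 5 lists, within each library, with 1 point per gene and library and the median of the fit as a line. Energy metabolism had a median of 0.76, the macula densa list -1.92 and the nephron progenitor and fetal programme -1.24, and the cell cycle list lay around 0.

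Of 7 macula densa genes tested, 6 were lower in the Umod-high group and none higher (median -1.92). Nos1, the neuronal nitric oxide synthase that marks the macula densa, had 9.44 and 0 CPM in the high group and 37.4 and 5.42 CPM in the low group (log2 -2.22 ± 0.44; edgeR adjusted p = 0.01). Pappa2, a protease of growth factor binding proteins, had 69.6 and 7.64 CPM against 795 and 253 CPM (-3.83 ± 0.25; edgeR adjusted p = 0.0001). Robo2, a guidance receptor, had 131 and 22.5 CPM against 269 and 358 CPM, and Bmp3 24.7 and 7.87 CPM against 94.8 and 39.5 CPM. In all 4 genes both libraries had the higher level in the low group. Without cells holding a Mki67 or Top2a UMI, 4 of 6 genes were lower, and Nos1 did not pass (-0.64; edgeR adjusted p = 0.38).

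Nos1 sat in few members. At least 3 Nos1 UMIs were found in 16 members of replicate 1 (7.14%) and in 3 of replicate 2 (1.22%), and the top 10% of cells held 99.2% and 100% of its UMIs. Over the 16 cells of replicate 1, Nos1 reached 161 CPM, Ptgs2 30.1 CPM with a UMI in 7 of them, Pappa2 1633 CPM and Robo2 761.5 CPM, with Umod at 164 CPM and Slc12a1 at 5244 CPM. Their median depth of 75985 UMIs was above that of the members, and the part of depth in this count was not tested. In the 3 cells of replicate 2 Ptgs2 had no UMI, Umod stood at 73.7 CPM and Pappa2 at 177 CPM. With the 16 and 3 cells left out, Pappa2 still differed by -4.35 between the Umod groups (edgeR adjusted p = 2.7e-05), whereas Robo2 did not pass (-2.01 ± 0.59; edgeR adjusted p = 0.061).

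The second split among members was by claudin. Cells with more Cldn16 than Cldn10 UMIs numbered 29 (12.9%) and 36 (14.6%), cells with more Cldn10 numbered 188 and 204, and 7 and 6 cells were tied. By this choice Cldn16 stood at 241 and 366 CPM in Cldn16-leading cells and at 60.8 and 59.4 CPM in Cldn10-leading cells, and Cldn10 at 48.4 and 18.1 CPM against 754 and 1001 CPM. Slc12a1 was at 6987 and 8523 CPM against 5461 and 5840 CPM and Umod at 531 and 380 CPM against 1028 and 1015 CPM, as descriptions. The claudin and Umod splits divide the same members. Genes that differed in both, such as Wnk1, are therefore not independent results, and the part of either split in the other was not tested. Median depth was 37607 and 28026 UMIs in Cldn16-leading and 28574 and 28278 in Cldn10-leading cells, and the median mitochondrial share 15.6% and 12.2% against 12.6% and 11.3%. The 8 markers of the distal convoluted tubule summed to 946 and 1376 CPM against 219 and 190 CPM, mostly Wnk1. Of these 8, 7 were higher in value in replicate 1 and 5 in replicate 2, and Slc12a3, which the rule limits, was at 0 in replicate 1. Trpm6 had 5.45 and 1.57 CPM against 2.56 and 1.89 CPM. The part of these markers in what follows was not tested.

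At full depth both claudins had a UMI in 112 of 224 members of replicate 1 and 116 of 246 of replicate 2, and only 1 of the pair in 106 and 125. To compare cells at equal depth, members were thinned to 10000 UMIs, at which a transcript can be missed in a cell that holds it. In the 203 and 221 members deep enough for this (21 and 25 were left out), Cldn16 was detected in 34.5% (27.5 to 42.1%) and 37.2% (30.1 to 44.6%) of cells with Cldn10. It was detected in 79.3% (60.3 to 92.0%) and 71.1% (54.1 to 84.6%) of cells without Cldn10. Both were detected in 60 and 68 cells at this depth. Cldn19 went with either, being found in 91.6% and 93.7% of cells with Cldn16 and in 82.5% and 84.9% of cells without it. Casr went with Cldn16: 63.0% and 60.2% of cells with Casr had Cldn16, against 19.4% and 30.5% of cells without. Across all members Spearman's rho was -0.07 and -0.31 for Cldn10 with Cldn16 and 0.55 and 0.53 for Casr with Cldn16, over 224 and 246 cells that share library and depth. Endothelial cells, which should lack these genes, had a Cldn10 UMI in 6.62% and 6.22% of cells and a Cldn16 UMI in 0.348% and 2.19%, at median depths of 12809 and 13797 UMIs. In the members, before thinning, the shares were 90.2% and 87.0% for Cldn10 and 57.1% and 58.1% for Cldn16.

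**Figure D5:**
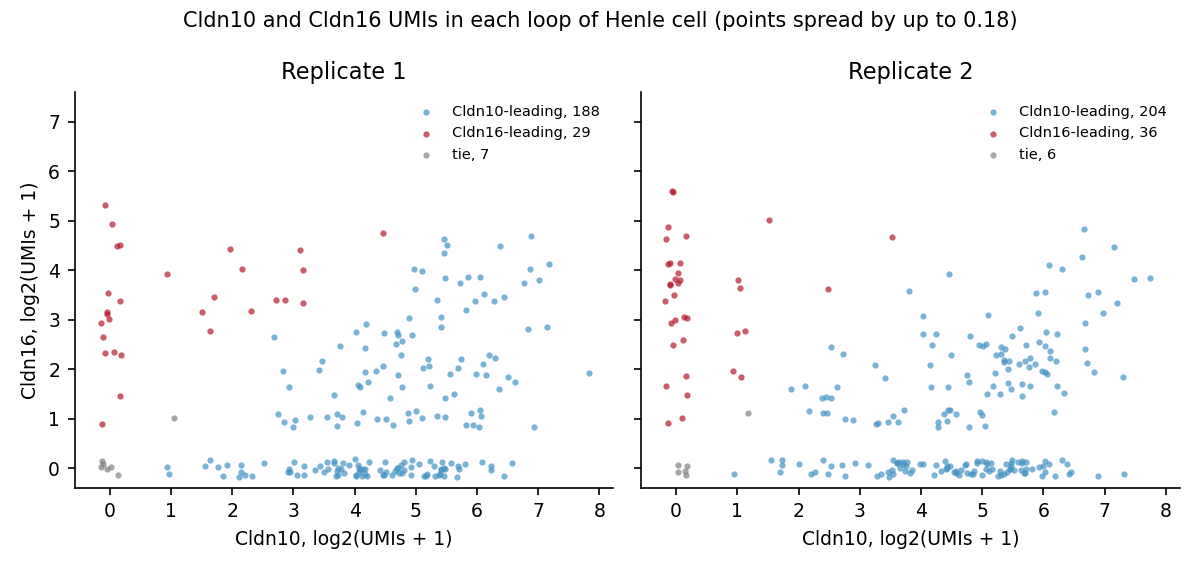
Cldn10 and Cldn16 UMIs in each loop of Henle cell, as log2(UMIs + 1), with 1 panel per library and points spread slightly to part equal values. Cldn16-leading cells, 29 and 36 in number, lie along the Cldn16 axis with few Cldn10 UMIs, and the 188 and 204 Cldn10-leading cells spread along the Cldn10 axis.

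Between Cldn16-leading and Cldn10-leading cells, 984 of 12676 genes (7.76%) differed in edgeR, 428 higher (3.38%) and 556 lower (4.39%) in Cldn16-leading cells, with a median log2 fold change of 0.01. This fit too has 1 residual degree of freedom, and without the library block 43 genes passed. Of 12 transport genes 6 were higher and 1 lower (median 0.42). The higher ones were mostly basolateral. Kcnj10 had 150 and 186 CPM against 23.5 and 40.8 CPM (2.46 ± 0.16; edgeR adjusted p = 1.3e-05) and its partner Kcnj16 428 and 403 CPM against 196 and 159 CPM (1.27 ± 0.14; edgeR adjusted p = 0.0003). Apical Kcnj1 was at 234 and 245 CPM against 280 and 255 CPM, with a difference of -0.13 ± 0.14 that did not pass. Wnk1 had 704 and 1237 CPM against 159 and 135 CPM (2.70 ± 0.23; edgeR adjusted p = 5.8e-05).

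Calcium and magnesium genes were on the side of Cldn16, with 6 of 12 higher and none lower (median 1.14). However, none of 5 tested passed with each cell thinned to 3000 UMIs and the groups redrawn to 16 and 25 Cldn16-leading cells. In that fit 82 of 5203 genes were higher over all. Casr had 140 and 212 CPM against 97.1 and 56.1 CPM (1.26 ± 0.27; edgeR adjusted p = 0.016). Vdr, the vitamin D receptor, had 62.7 and 43.2 CPM against 18.7 and 12.4 CPM (1.80 ± 0.21; edgeR adjusted p = 0.00043). Pvalb, a calcium buffer of the distal convoluted tubule, had 40.9 and 20.4 CPM against 6.28 and 0.756 CPM. Pth1r rose too, with 504 and 725 CPM against 145 and 137 CPM (2.14 ± 0.17; edgeR adjusted p = 4.4e-05). Ptger3 went the other way, at 68.2 and 91.2 CPM against 237 and 200 CPM (-1.43 ± 0.18; edgeR adjusted p = 0.00092).

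Among 25 transcription factors 6 were higher and 7 lower. Irx1 had 39.5 and 20.4 CPM in Cldn16-leading cells against 340 and 242 CPM (-3.26 ± 0.17; edgeR adjusted p = 3.3e-06), and Irx2 and Sim2 fell with it, by 2.73 and 2.68 on the log2 scale. Irx3, their relative, was the reverse, at 60.7 and 44.8 CPM against 9.19 and 4.79 CPM (2.97 ± 0.25; edgeR adjusted p = 5.1e-05). Foxq1, a forkhead factor outside the lists, had 377 and 657 CPM against 36.5 and 42.6 CPM (3.70 ± 0.18; edgeR adjusted p = 2.8e-06). Tmem52b, a membrane protein gene, had 1019 and 1062 CPM against 55.5 and 52.7 CPM (4.30 ± 0.15; edgeR adjusted p = 1.4e-07). Nrxn3, a neurexin, had 640 and 1526 CPM against 40.2 and 28.0 CPM, and Car15, a carbonic anhydrase, 494 and 1985 CPM against 53.3 and 134 CPM. Sox9 had 320 and 64.5 CPM against 10.0 and 15.4 CPM. Jag1 had 107 and 91.2 CPM against 41.8 and 31.0 CPM (1.49 ± 0.17; edgeR adjusted p = 0.00038), while Hes1 fell, with 81.8 and 96.7 CPM against 175 and 128 CPM (-0.72 ± 0.19; edgeR adjusted p = 0.04). Of 13 Notch genes 2 were higher and 1 lower.

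Some luminal protein genes also lay on the side of Cldn16. Of 13 secreted and luminal protein genes 3 were higher and 1 lower. Spp1, which encodes osteopontin, had 532 and 981 CPM against 157 and 207 CPM (2.04 ± 0.16; edgeR adjusted p = 3.5e-05), and Kl 106 and 118 CPM against 42.2 and 31.8 CPM (1.64 ± 0.18; edgeR adjusted p = 0.0004). Of 14 WNK pathway genes 3 were higher and 1 lower, of 12 claudins and junction genes 2 were higher and none lower, of 14 receptors 2 were higher and 4 lower, and of 23 energy genes 4 were higher and 1 lower. In addition, 1 of 16 progenitor and fetal genes, Hmga2, was lower, and 1 of 6 innate and antigen genes was lower.

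Of 5 tested genes of the thin limb list, 4 were lower in Cldn16-leading cells and none higher (median -2.0). Of 8 osmolyte genes, 2 were lower, Slc6a12 and Hspb1, and none higher (median -0.29). Cryab had 0 and 1.57 CPM in Cldn16-leading cells against 63.7 and 89.5 CPM (edgeR adjusted p = 2e-05). Slc6a12, the betaine transporter that loads osmolytes, had 0.682 and 0.786 CPM against 19.1 and 20.9 CPM (edgeR adjusted p = 0.00042). No fold is given for these, since Cldn16-leading cells held few of their UMIs. Cxcl12 had 71.6 and 40.9 CPM against 338 and 306 CPM (-2.50 ± 0.17; edgeR adjusted p = 2e-05). Aqp1, the water channel of the descending thin limb, was at 0.788 and 0.621 CPM in all members and was not tested here. Robo2, Bmp3, Pappa2 and Nos1 of the macula densa list were lower in Cldn16-leading cells and Ptges was higher.

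Cell cycle genes were also lower in Cldn16-leading cells, in 18 of 20 cases with none higher (median -1.38). Cenpf, a kinetochore gene, had 41.6 and 15.7 CPM against 146 and 60.1 CPM (-1.83 ± 0.18; edgeR adjusted p = 0.00014), and Mki67 54.5 and 47.2 CPM against 135 and 72.5 CPM (-0.96 ± 0.20; edgeR adjusted p = 0.013). With each cell thinned to 3000 UMIs and the groups redrawn, 1 of 11 tested genes was lower, and 125 of 5203 over all genes. In the groups as first drawn, the share of cells with a Mki67 or Top2a UMI at 3000 UMIs was 17.2% (5.85 to 35.8%) and 5.56% (0.68 to 18.7%) in Cldn16-leading cells. In Cldn10-leading cells it was 25.5% (19.5 to 32.4%) and 20.1% (14.8 to 26.3%), and these intervals overlap in each library.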

How the data were processed

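Single cells of kidney at postnatal day 0 were profiled in 2 libraries of 1 genotype by droplet 3′ RNA sequencing. The authors deposited whole-number UMI counts per gene and barcode as unfiltered matrices, in Cell Ranger format. The submitters' processing notes name Cell Ranger 6.0.1 and mm10, and the file headers give version 4. Gene identifiers matched GENCODE M21 (GRCm38) for 32158 of 32285.

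Barcodes were kept from 3000 UMIs and 500 genes upwards, with 20% or less of UMIs from the 13 mitochondrial genes, and members were picked by the count limits given above. UMIs were summed per library and cell set and tested with edgeR 4.0.16 in R 4.3.3 (TMM scaling, filterByExpr with a minimum count of 10, quasi-likelihood test, library as block, Benjamini-Hochberg adjustment over all tested genes, threshold 0.05). Genes of the choice rules were left out of tests. The block rests on each library giving 1 sum of every set. Sets were compared in 8 sums, and the Umod groups and the claudin groups in 4 sums each. Fold changes are log2 with their SE. Shares carry 95% exact Clopper-Pearson intervals, which cover counting error only. Shares were compared after thinning to 3000 or 10000 UMIs. Doublets were scored with Scrublet in scanpy 1.11.5 and kept. The pipeline was tested on simulated data. DESeq2 1.42.0 was an alternative.

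The members and the 16 gene lists were chosen with earlier results of these data known. Besides list genes, the text may name per comparison the 10 genes of largest log2 change in each direction among those past the threshold, of the same direction in both libraries and at 20 CPM or more in the higher set, leaving out rule genes, mitochondrial genes and clone names, and the 20 most abundant genes of the members. The limit of 500 Slc12a1 CPM and the alternatives without dividing cells or without cells of at least 3 Nos1 UMIs were chosen after seeing the data.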

Additional observations from a re-analysis of the deposited data

How the results depend on the processing

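The counts of genes past the threshold kept within 1.5 times their main value under DESeq2 size factors, cells of at least 10000 UMIs and removal of the highest Scrublet scores, and also, where run, under DESeq2 in place of edgeR, subtraction of free RNA and a stricter Slc12a1 limit. The library is the replicate number here and the block pairs sums of 1 library. With no replicate block, calls were 1666 against distal convoluted tubule, 2632 against collecting duct, 23 between the Umod groups and 43 between the claudin groups. Without cells with a Mki67 or Top2a UMI they were 1766 against distal convoluted tubule, 577 by Umod and 498 by claudin. With each cell thinned to 3000 UMIs they were 298 by Umod and 207 by claudin, and with no filter on low counts 1528 by claudin. Higher calls by Umod were 59.3% of calls in the main fit and 47.3% without dividing cells, and by claudin 43.5% and, with no block, 53.5%. Signs reversed as follows. By claudin, thinning gave Bsnd -0.45, Robo2 0.71 and Top2a 0.12. By Umod, thinning gave Dzip1l -0.22, Fgf9 -0.27 and Vegfa -0.47, leaving out dividing cells gave Hmga2 0.12, Slc9a3 -0.011 and Tmem207 -0.16, leaving out members under 500 Slc12a1 CPM gave Ube2c 0.23, and Wnt4 ran from -5.40 without replicate 1 to 0.21 without replicate 2. Without dividing cells, Kcnj10 was 0.028 against collecting duct, and H19 was -0.95 and Tyms -0.039 against distal convoluted tubule. The cause was not tested for any of these. The share of members without 1 replicate ran from 4.05 to 5.85%. Without a replicate the gene fits have no residual degrees of freedom, so counts of calls could not be fitted. Across all settings run, 187 of 187 named genes kept their direction against proximal tubule, 172 of 173 against collecting duct, 147 of 149 against distal convoluted tubule, 102 of 110 by Umod and 95 of 98 by claudin, while 42, 65, 72, 101 and 87 lost the call in at least 1. Genes near a few UMIs per sum are limited by depth.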

Other observations

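Cells that met every limit of the rule except that for Umod, 58 in replicate 1 and 80 in replicate 2, carried more macula densa transcripts than the members. Nos1 stood at 62.1 and 75.7 CPM in them and at 24.2 and 3.0 CPM in the members. Ptgs2 stood at 23.6 and 30.5 CPM against 4.53 and 0.931 CPM, Pappa2 at 926 and 1111 CPM against 454 and 143 CPM, and Robo2 at 547 and 635 CPM against 204 and 208 CPM. At least 3 Nos1 UMIs were found in 9 (15.5%) and 16 (20%) of these cells, against 16 (7.14%) and 3 (1.22%) of the members. Nos1 was thus spread over both sides of the Umod limit, and in replicate 2 most of the cells with at least 3 Nos1 UMIs lay outside it. These are values of cells chosen after their levels were seen, with no test.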
